A study of Homo sapiens with 11 samples.

Results

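The natriuretic peptide system was followed in cardiomyocytes through its 6 genes NPPA, NPPB, NPR1, NPR2, NPR3 and CORIN, which were taken by symbol from a table of 19990 genes. NPPA encodes atrial natriuretic peptide and NPPB encodes B-type natriuretic peptide. CORIN is a membrane protease that cuts the NPPA precursor into its active form. NPR1 and NPR2 are receptors that carry a guanylyl cyclase, and NPR3 is the clearance receptor that takes the peptides up and has no cyclase. All 6 genes were measured in every library.

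The cells were cardiomyocytes made from WTC11 (passage 63), an induced pluripotent cell line of human origin that is in wide use. Long-term culture was used to follow their maturation. All wells came from 1 differentiation, driven first by CHIR99021, an inhibitor of the kinase GSK3, and then by IWP2, which blocks secretion of Wnt proteins. They were kept afterwards in RPMI medium with B27 and insulin, with no other agent named. Collections were made at Day 30 (4 wells), Day 60 (3) and Day 113 (4), which form the groups. Poly(A) RNA was sequenced in paired 150-base reads, and the libraries held 24.1 to 34.5 M counts (M, 1000000). The cardiomyocyte marker TNNT2 held 2260 to 5816 CPM (counts per 1000000 counts) over the libraries. No batch is named in the labels, and the day of collection and the day of culture cannot be told apart. The wells share a cell line and a differentiation, so every p-value measures the spread between wells only.

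Natriuretic peptides are stored in granules of heart muscle cells and released when the wall of the heart is stretched. In the circulation they bind NPR1, whose cyclase makes cyclic GMP, and they lower blood pressure and blood volume. In the embryo NPPA is expressed in atrial and ventricular muscle, and after birth it becomes largely atrial, with renewed ventricular expression under load. NPR2 binds mainly C-type natriuretic peptide, the product of NPPC.

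NPPA and NPPB lie next to each other on chromosome 1 (GRCh38, GENCODE v29 annotation). NPPA spans chr1:11845709-11848345 and NPPB spans chr1:11857464-11858931, both on the minus strand, with 9118 bases between them. NPR1 lies further along the same chromosome at chr1:153678637-153693992 on the plus strand. NPR2 is at chr9:35792154-35809732 (plus), NPR3 at chr5:32689070-32791724 (plus) and CORIN at chr4:47593998-47838106 (minus). Of the NPPA exon bases, 286 overlap exons of CLCN6, a chloride transporter gene on the opposite strand, and 329 exon bases of NPR2 overlap SPAG8. Whether counting used strand is not given in the sources used here, so reads from those bases cannot be assigned with certainty.

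The NPPA promoter is known for binding sites of GATA4, NKX2-5 and other cardiac transcription factors, several of which were measured in the same libraries. The RefSeq promoter table (GRCh38.p14) was searched on both strands of the 250 bases upstream of each start, for TGATAA (bound by factors of the GATA family), AAGTG (core of the NKX2-5 site), TATAAA (a core promoter element), AGGTGT (core of the T-box site) and CATTCC (TEAD factors). Distances are counted from the RefSeq start of NPPA at chr1 11847783, which is also the start of the main GENCODE transcript. A longer GENCODE transcript starts at 11848345, and the 3 windows lie in an intron of it. The 3 NPPA windows that held matches are printed 5′ to 3′ in the direction of the gene, each 30 bases long, with the matches in capitals. A match on the other strand reads as its reverse complement, TTATCA or CACTT, and no matches overlapped each other.
NPPA, 150 to 121 bases upstream, chr1:11847904-11847933: ctgcgggaTGATAActttaaaagggcatct
NPPA, 110 to 81 bases upstream, chr1:11847864-11847893: tctCACTTggcagctTTATCActgcAAGTG
NPPA, 40 to 11 bases upstream, chr1:11847794-11847823: agctggggggcTATAAAaagaggcggcact
NPPA thus had 2 TGATAA, 2 AAGTG and 1 TATAAA, and no AGGTGT or CATTCC in this window. Among 35116 promoters of the same length, 6.66% held TGATAA, 37.6% held AAGTG, 10.7% held TATAAA, 9.57% held AGGTGT and 11.9% held CATTCC. At least 2 TGATAA together with at least 2 AAGTG stood in 28 promoters (0.0797%). This combination is the one found in the NPPA window, so NPPA is among the 28 by definition and the share is no test. The CORIN and NPR1 windows held none of the 5 motifs. NPR2 and the first NPR3 promoter each held 1 AAGTG, and the second NPR3 promoter held 1 AAGTG, 1 AGGTGT and 1 CATTCC. The NPPB promoter was not in the table. These are matches of letters, and binding was not measured.

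NPPA rose in each interval of culture. Levels are given as CPM, the share of a library's counts after TMM scaling, which corrects library sizes for composition. The 4 Day 30 wells held 98.5, 129, 93.0 and 192 CPM of NPPA. The 3 Day 60 wells held 311, 220 and 235 CPM, and the 4 Day 113 wells held 596, 754, 697 and 497 CPM. Every Day 60 well stood above every Day 30 well and below every Day 113 well.

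The NPPA means were 128 ± 45.7 CPM at Day 30 (SD, n = 4), 255 ± 49.1 at Day 60 (SD, n = 3) and 636 ± 113 at Day 113 (SD, n = 4). With edgeR's quasi-likelihood test, adjusted over all 19990 genes by the Benjamini-Hochberg method and called under 0.05, the first interval gave a log2 fold change of 0.99 ± 0.21 (SE; adjusted p 0.007). The second interval gave 1.32 ± 0.22 (SE; adjusted p 0.00057). Over the whole course NPPA was 4.96-fold higher, a log2 fold change of 2.31 ± 0.21 (SE; adjusted p 6.6e-07). The rise did not differ detectably between the intervals, with 0.32 ± 0.38 (SE; adjusted p 0.67) for the second minus the first. In the second interval the opposite-strand neighbour CLCN6 went the other way, with a value of -0.59 ± 0.12 (SE; adjusted p 0.0018), and in the first it was not called. CLCN6 held 51.0 ± 5.58 CPM at Day 30 (SD, n = 4), 53.95 ± 4.19 at Day 60 (SD, n = 3) and 35.9 ± 3.52 at Day 113 (SD, n = 4). In bulk RNA, a change in the number of cells of a type and a change in RNA per cell cannot be told apart. The summed CPM of 8 cardiomyocyte markers ran from 25123 to 35560 at Day 30, from 30303 to 35351 at Day 60 and from 26078 to 27885 at Day 113. MYH7, the slow myosin heavy chain, made up 50.2% of this sum at Day 30 and 34.6% at Day 113. Over the course 3 of the 8 markers were called higher (TNNT2, TNNI1 and TNNI3) and 2 lower (ACTN2 and MYH7), so the markers did not move one way. The shares over all genes were 17.3% higher and 17.2% lower.

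NPPB was not called in any comparison. Its Day 30 wells held 114, 112, 70.4 and 171 CPM, its Day 60 wells 80.1, 90.1 and 76.7 CPM, and its Day 113 wells 67.9, 123, 148 and 55.9 CPM. All 3 days overlapped, and the wells of Day 113 spread as widely as those of Day 30. The means were 117 ± 41.5 (SD, n = 4), 82.3 ± 7.01 (SD, n = 3) and 98.7 ± 44.0 CPM (SD, n = 4). Day 60 against Day 30 gave a log2 fold change of -0.51 ± 0.30 (SE; adjusted p 0.34), Day 113 against Day 60 gave 0.26 ± 0.29 (SE; adjusted p 0.57) and the course -0.24 ± 0.27 (SE; adjusted p 0.53). The sign in the second interval was lost without Day 113 well 3 (-0.0022).

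Within a library the ratio of the peptide genes does not depend on how libraries are scaled. The NPPA to NPPB count ratio was 0.865, 1.15, 1.32 and 1.12 in the Day 30 wells, so the genes took nearly equal counts. It was 3.89, 2.44 and 3.06 in the Day 60 wells and 8.78, 6.15, 4.70 and 8.89 in the Day 113 wells. No Day 60 ratio reached into the range of either other day. On the log2 scale the mean ratios were 0.14 ± 0.26 at Day 30 (SD, n = 4), 1.62 ± 0.34 at Day 60 (SD, n = 3) and 2.79 ± 0.44 at Day 113 (SD, n = 4). The differences were 1.48 for Day 60 against Day 30 and 1.17 for Day 113 against Day 60, each with a two-sided exact permutation p of 0.0571, the smallest that 3 wells against 4 allow. Day 113 against Day 30 differed by 2.64, with an exact permutation p of 0.0286, the smallest that 4 against 4 allow. Adjusted over the 6 ratio tests made, all 3 were 0.0686, so none passed 0.05 after adjustment, and all wells of the later day were higher in each comparison.

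**Figure D1:**
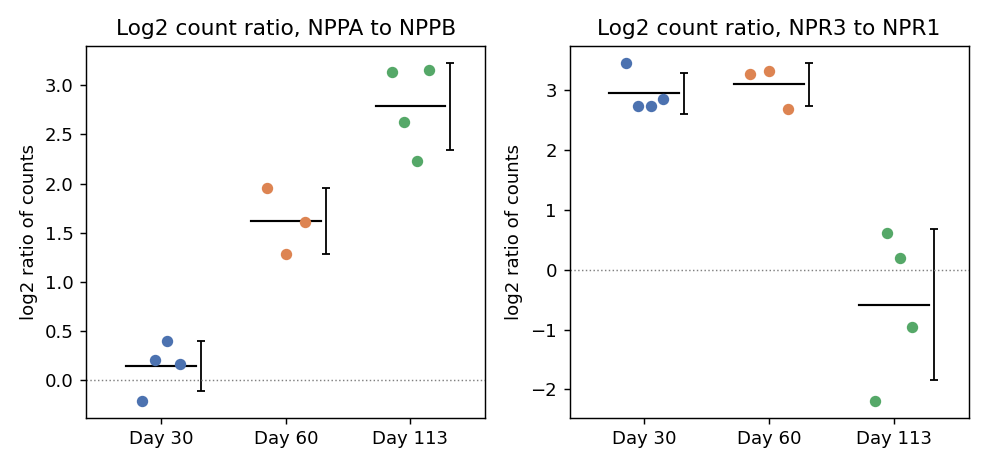
Log2 count ratios within each library for NPPA to NPPB (left) and NPR3 to NPR1 (right), by day of culture, where points are wells, horizontal lines are day means and brackets are ± 1 SD. The NPPA to NPPB ratio stood apart on each day, and the NPR3 to NPR1 ratio was lower in all 4 Day 113 wells than in any earlier well.

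Which peptide gene stood higher was read per length, since the genes differ in size. Per kilobase of exon, the Day 30 mean was 115 CPM for NPPA and 168 CPM for NPPB, and NPPB was the higher in 4 of 4 wells. At Day 60 NPPA was the higher in 3 of 3 wells (means 228 and 119 CPM per kilobase), and at Day 113 in 4 of 4 wells (568 and 142). The Day 30 order depends on the length used: with the main transcripts of 855 and 694 bases in place of all exons (1120 and 694), NPPB was the higher in 3 of the 4 wells. The Day 30 ranges of NPPA (83.1 to 172 CPM per kilobase) and NPPB (101 to 247) overlapped in any case.

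CORIN was expressed at a high level from the first day. Its wells held 375, 339, 353 and 454 CPM at Day 30, 524, 364 and 427 CPM at Day 60, and 441, 414, 430 and 507 CPM at Day 113. The days overlapped, with means of 380 ± 51.3 (SD, n = 4), 438 ± 80.4 (SD, n = 3) and 448 ± 40.7 CPM (SD, n = 4). The log2 fold changes were 0.21 ± 0.13 (SE; adjusted p 0.40), 0.03 ± 0.13 (SE; adjusted p 0.90) and, over the course, 0.24 ± 0.12 (SE; adjusted p 0.15), none of them called. The CORIN value of the second interval turned to -0.0311 under upper-quartile scaling. The substrate gene NPPA was 4.96-fold higher at Day 113 than at Day 30. With day as the only factor, edgeR called CORIN in no comparison. When replicate number was a further factor in edgeR, the CORIN course value was called (0.243, adjusted p 0.045). Per kilobase, CORIN stood at 37.7 CPM at Day 30 and 44.4 CPM at Day 113, below both peptide genes and above all 3 receptors on each day.

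NPR1, the receptor for both cardiac peptides, was low until Day 60 and higher in every Day 113 well. The Day 30 wells held 1.91, 3.20, 4.01 and 2.75 CPM, from 50 to 122 counts. The Day 60 wells held 2.20, 3.50 and 1.83 CPM, and the Day 113 wells held 20.7, 16.7, 11.01 and 6.86 CPM, from 171 to 718 counts. The lowest Day 113 well was above the highest earlier well, and the Day 113 wells spread widely around their mean of 13.8 ± 6.12 CPM (SD, n = 4). The earlier means were 2.97 ± 0.88 (SD, n = 4) and 2.51 ± 0.88 CPM (SD, n = 3).

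From Day 60 to Day 113 NPR1 was 5.52-fold higher, a log2 fold change of 2.47 ± 0.38 (SE; adjusted p 0.00028), and against Day 30 it was 4.65-fold higher (2.22 ± 0.33, SE; adjusted p 0.0001). Before Day 60 the value was -0.25 ± 0.36 (SE; adjusted p 0.77). The second interval exceeded the first by 2.71 ± 0.68 (SE; adjusted p 0.02). That difference between intervals was not called under limma-voom (2.74, adjusted p 0.086), without Day 60 well 1 (2.51, adjusted p 0.1) or without Day 60 well 3 (2.31, adjusted p 0.12), and its adjusted p ran from 0.0011 to 0.12 over all alternatives. Without Day 60 well 2 it was 3.34.

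Endothelial cells also express NPR1, and endothelial and endocardial markers moved with it. The summed CPM of 8 such markers was 59.8 to 86.1 at Day 30 and 42.3 to 69.5 at Day 60, and 772, 302, 362 and 195 in the 4 Day 113 wells. Of the 8 markers, 7 were higher at Day 113 than at Day 60 and 7 were higher than at Day 30. The shares of all genes called higher were 12.9% and 17.3%. PECAM1, an endothelial adhesion molecule, rose by 4.11 ± 0.40 (SE; adjusted p 8.2e-06) and CDH5, the endothelial cadherin, by 3.30 ± 0.44 (SE; adjusted p 1e-04) in the second interval, where CDH5 gave 2.7 without Day 113 well 1. NFATC1, which marks endocardium among other cells, had a value of 0.40 ± 0.30 (SE; adjusted p 0.36). No marker was at 0 in all libraries of any day. Day 113 well 1 was highest and well 4 lowest in both NPR1 and the marker sum, while wells 2 and 3 stood in opposite order. Fibroblast markers moved in the same wells, with summed CPM of 1663 to 2757 over 7 markers at Day 60 and 4200 to 10132 at Day 113. Of the 7, 4 were higher and 1 lower, beside 12.9% and 11.1% of all genes. The part of endothelial, endocardial and fibroblast cells in the NPR1 value was not tested.

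**Figure D2:**
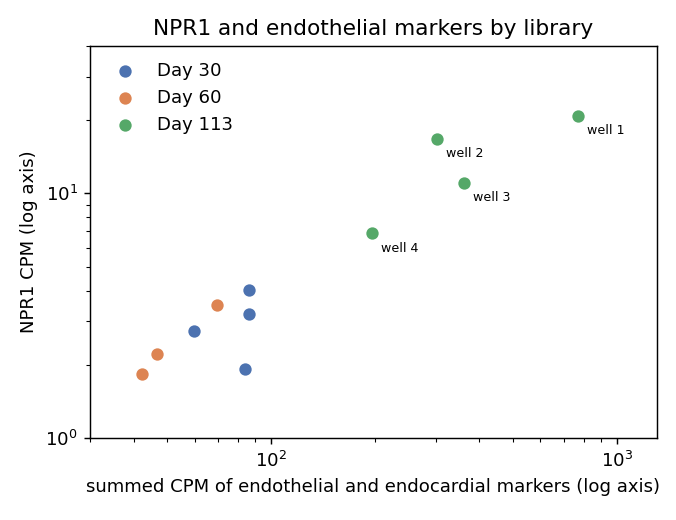
NPR1 CPM against the summed CPM of 8 endothelial and endocardial markers in the 11 libraries, both on log axes, with the Day 113 wells numbered. The 4 Day 113 wells lie above the other 7 on both axes, from 6.86 to 20.7 CPM of NPR1.

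NPR2, the receptor for C-type natriuretic peptide, stayed within the spread between wells. Its wells held 13.0, 12.6, 12.0 and 13.2 CPM at Day 30, 11.8, 11.9 and 15.4 CPM at Day 60, and 14.0, 12.3, 10.0 and 12.9 CPM at Day 113. The days overlapped, and the means of 12.7 ± 0.55 (SD, n = 4), 13.0 ± 2.01 (SD, n = 3) and 12.3 ± 1.68 CPM (SD, n = 4) differed by less than 1 SD of Day 60. The log2 fold changes were 0.04 ± 0.16, -0.08 ± 0.16 and -0.05 ± 0.15 (SE; adjusted p 0.94, 0.76 and 0.84). Each of these signs turned when 1 well was left out, the first without Day 60 well 3 (-0.075) and the course value without Day 113 well 3 (0.040). NPPC, which encodes the ligand of NPR2, had 3, 1, 22 and 0 counts at Day 30, 0, 5 and 17 at Day 60, and 0, 0, 12 and 0 at Day 113. NPPC was thus at the floor of 3 counts or under in 7 of the 11 wells.

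Relative to its mean, NPR3 varied more between wells than any other of the 6 genes at Day 60 and at Day 113. The Day 30 wells lay close together at 21.2, 21.3, 27.0 and 20.0 CPM. The Day 60 wells held 21.4, 35.3 and 11.9 CPM, and the Day 113 wells held 4.53, 25.6, 12.6 and 3.53 CPM. At Day 113 wells 1 and 4 were the lowest of all 11 libraries, and well 2 lay within the range of Day 30. The means were 22.4 ± 3.13 (SD, n = 4), 22.9 ± 11.8 (SD, n = 3) and 11.6 ± 10.2 CPM (SD, n = 4).

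With all wells and day as the only factor, edgeR called NPR3 in no comparison. Its log2 fold changes were 0.03 ± 0.49 by Day 60 (SE; adjusted p 0.98), -0.98 ± 0.49 (SE; adjusted p 0.16) in the second interval and -0.95 ± 0.46 (SE; adjusted p 0.13) over the course. These calls turned on the tool, on the factors in the fit and on Day 113 well 2. Without that well the second interval gave -1.72 (adjusted p 0.0076) and the course -1.69 (adjusted p 0.0041), both called lower. The course value was also called under limma-voom (-1.39, adjusted p 0.019). In edgeR with replicate number as a further factor it was called too (-1.31, adjusted p 0.015).

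The clearance receptor and the cyclase receptor for the cardiac peptides were compared by their counts within each library. NPR3 to NPR1 count ratios were 10.98, 6.63, 6.70 and 7.25 at Day 30, 9.68, 10.04 and 6.44 at Day 60, and 0.219, 1.53, 1.14 and 0.516 at Day 113. NPR3 took the more counts in all 7 earlier wells, and in 2 of the 4 Day 113 wells NPR1 took more. NPR3 has the longer exons (9866 bases against 5003 for NPR1), so these count ratios are not ratios per length. The mean log2 ratios were 2.95 ± 0.34 at Day 30 (SD, n = 4), 3.10 ± 0.36 at Day 60 (SD, n = 3) and -0.58 ± 1.26 at Day 113 (SD, n = 4). Day 113 was lower than Day 60 by a log2 difference of -3.68 (exact permutation p 0.0571, two-sided, the smallest possible) and lower than Day 30 by -3.53 (exact permutation p 0.0286, the smallest possible), with no overlap of wells. Both adjusted to 0.0686, and the first interval gave 0.15 (exact permutation p 0.743, adjusted 0.743). Per kilobase at Day 113, NPR2 stood at 3.19 CPM, NPR1 at 2.76 and NPR3 at 1.17. There the NPR1 range (1.37 to 4.14) overlapped those of NPR2 (2.598 to 3.63) and NPR3 (0.358 to 2.595). Within each Day 113 well NPR1 was above NPR3 per kilobase. NPR1 held 4.14, 3.34, 2.20 and 1.37 CPM per kilobase, beside 0.459, 2.595, 1.28 and 0.358 for NPR3. In every earlier well NPR3 was the higher per kilobase. At Day 60 the means were 3.37 for NPR2, 2.32 for NPR3 and 0.50 for NPR1, and the NPR3 range (1.202 to 3.58) overlapped that of NPR2. At Day 30 the means were 3.29 for NPR2, 2.27 for NPR3 and 0.59 for NPR1, where the ranges of the 3 receptors did not overlap.

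**Figure D3:**
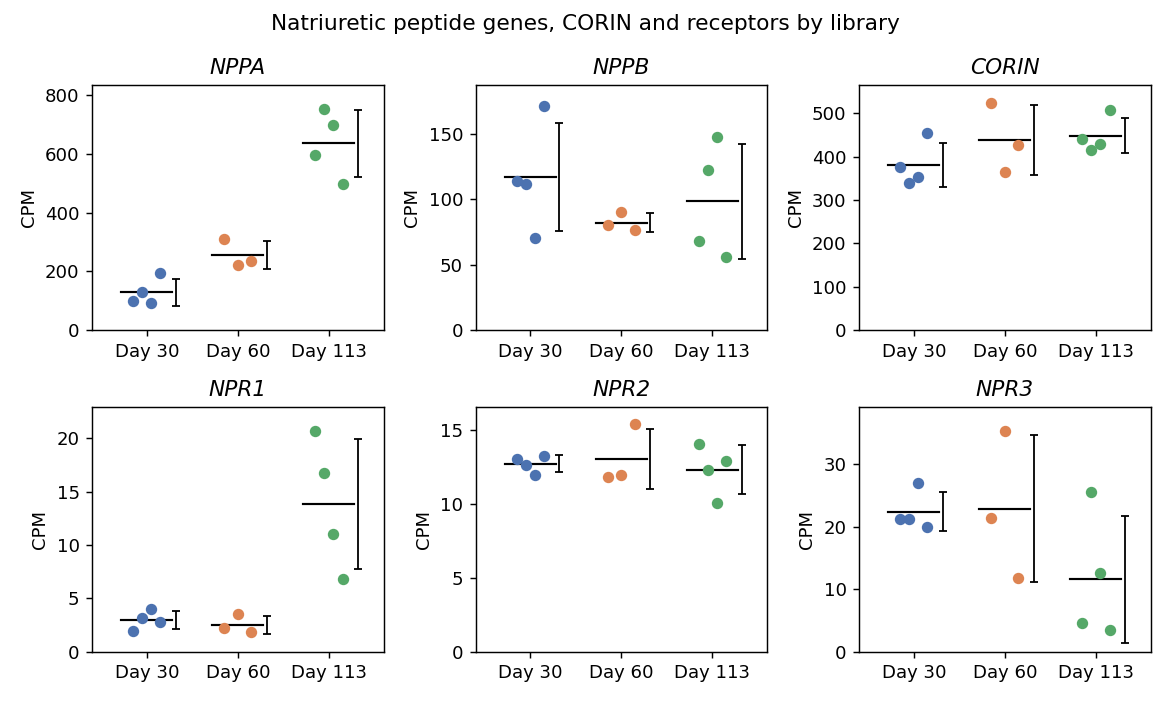
CPM of the 6 genes in each library by day, with a linear axis from 0 for each gene, where points are wells, horizontal lines are day means and brackets are ± 1 SD. NPPA stands apart on all 3 days and NPR1 at Day 113, while NPPB, CORIN, NPR2 and NPR3 overlap between days.

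Of the 6 genes, 1 (NPPA) was called from Day 30 to Day 60, where 10.3% of all genes were called (4.39% higher, 5.91% lower). From Day 60 to Day 113, 2 of the 6 (NPPA and NPR1) were called, where 24% of all genes were (12.9% higher, 11.1% lower). Over the course the same 2 were called, where 34.5% of all genes were. In the difference between intervals 1 (NPR1) was called, where 9.34% of all genes were (4.97% with a higher and 4.38% with a lower second interval). Upper-quartile scaling changed that last split of calls from 993 higher and 875 lower to 770 and 1146. All calls in the 6 genes were higher at the later day. Wells of the 2 days did not overlap for 1, 2 and 2 of the 6 genes, where 24.8%, 30.6% and 35.1% of all genes did not overlap. The median log2 change over the 6 genes was 0.03, 0.15 and 0.10, beside -0.01, 0.00 and -0.02 over all genes. The comparisons share libraries, so these counts are not independent of each other.

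**Figure D4:**
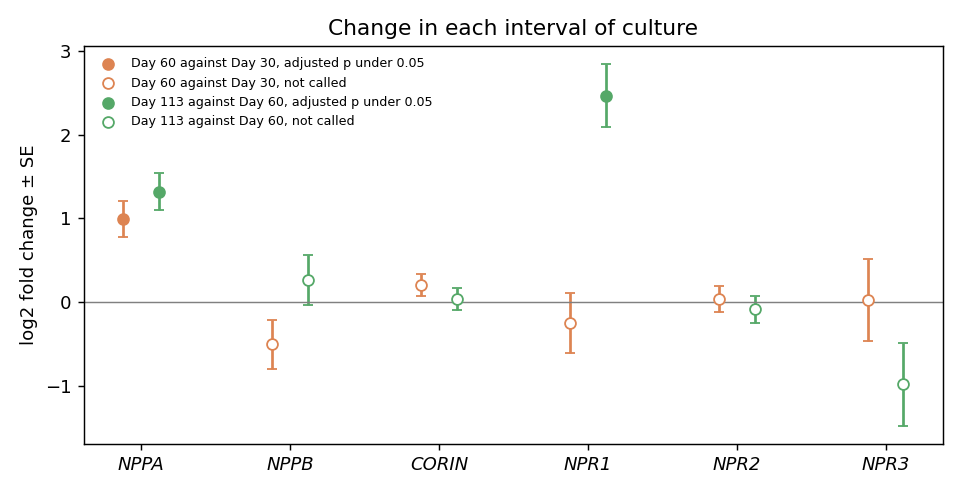
Log2 fold change ± SE of each gene from Day 30 to Day 60 and from Day 60 to Day 113, with filled symbols for an adjusted p under 0.05 in edgeR. NPPA was called in both intervals (0.99 and 1.32), NPR1 in the second only (2.47), and the other 4 genes in neither.

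Single wells of a day did not rank alike in the 6 genes. At Day 30 well 4 was highest in NPPA (192 CPM), NPPB (171 CPM) and CORIN (454 CPM), and lowest in NPR3 (20.0 CPM). At Day 113 well 4 was lowest in NPPA (497 CPM), NPPB (55.9 CPM), NPR1 (6.86 CPM) and NPR3 (3.53 CPM), and highest in CORIN (507 CPM). Day 113 well 2 was highest in NPPA (754 CPM) and NPR3 (25.6 CPM). The summed CPM of 8 atrial markers, at 6068 to 8955 over the Day 113 wells, overlapped the 5084 to 6742 of Day 30, and of those markers 2 were higher and 2 lower at Day 113 than at Day 30. At Day 60 the sum was 6519 to 7138, with 4 of the markers called higher than at Day 30 (NR2F1, TBX5, MYBPHL and KCNJ3) and 1 lower (SLN). MYL7, the atrial myosin light chain, made up 97.0% of the sum at Day 30 and 97.4% at Day 113. Over 6 ventricular markers the sum was 3142 to 4208 at Day 30 and 3222 to 5296 at Day 113, with 1 higher (MYL2) and 3 lower. The ventricular sum at Day 60 was 4593 to 5270, with 2 markers called higher than at Day 30 (MYL2 and LBH) and 1 lower (HAND1). Of all genes, 4.39% were called higher and 5.91% lower at Day 60 than at Day 30. At Day 113 against Day 30 these shares were 17.3% and 17.2%.

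Genes with the most similar course were found by Pearson's r of log2 CPM over the 11 libraries, among 11940 genes with a mean of at least 5 CPM. The libraries of a day share its level, so r describes these libraries only. NPPA was most like MPP3 (r = 0.985), RSU1 (0.984) and SYNC (0.979). NPR1 was most like DCLRE1B (0.979), GINS1 (0.978) and GNAI2 (0.977). For NPR3 they were PTGS1 (0.945), H1FX (0.935) and CTDNEP1 (0.927), and for CORIN they were CELF2 (0.911), HECTD2 (0.907) and TRDN (0.897). NPPB (PLEKHO1, 0.827) and NPR2 (CINP, 0.905) had looser nearest neighbours than NPPA and NPR1.

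Other genes that make, cut, sense or control the peptides were grouped in 8 lists, of which 61 genes were measured. Between Day 30 and Day 60, 8 of the 61 were called higher and 6 lower, beside 4.39% and 5.91% of all genes. Between Day 60 and Day 113, 8 were higher and 15 lower, beside 12.9% and 11.1% of all genes. Over the course 10 were higher and 20 lower, beside 17.3% and 17.2% of all genes. The median log2 change of the 61 genes was -0.04, -0.03 and -0.13, beside -0.01, 0.00 and -0.02 over all genes.

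OSTN encodes osteocrin, a peptide that binds the clearance receptor NPR3 and so spares the natriuretic peptides. It held 0.649, 0.534, 1.12 and 1.31 CPM at Day 30, 4.79, 2.47 and 2.78 CPM at Day 60, and 6.26, 4.39, 2.37 and 14.9 CPM at Day 113. All later wells were above the Day 30 wells, and Day 113 well 4 was the highest. Over the course OSTN rose by 2.94 ± 0.51 (SE; adjusted p 0.00032), and by 2.26 without Day 113 well 4. The first interval gave 1.88 ± 0.52 (SE; adjusted p 0.029), a call lost under limma-voom (adjusted p 0.16) and without Day 30 well 1, 2 or 3 or Day 60 well 1 or 3, each left out in turn (adjusted p 0.055 to 0.14), and the second 1.05 ± 0.51 (SE; adjusted p 0.15). Of its exon bases, 121 overlap OSTN-AS1.

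Of 5 genes for processing and breakdown of the peptides, 3 were lower at Day 113 than at Day 30, beside 17.2% of all genes. MME, which encodes neprilysin, the protease that degrades natriuretic peptides, held 15.0 to 31.7 CPM in the Day 30 wells, 5.39 to 7.48 CPM at Day 60 and 5.13 to 10.5 CPM at Day 113. By Day 60 it fell by 1.92 ± 0.30 (SE; adjusted p 0.00077). Markers of endoderm and epithelium moved with it. Their summed CPM over 6 markers was 360 to 973 at Day 30 and 23.4 to 31.5 at Day 60. At Day 60, 6 of the 6 were lower, beside 5.91% of all genes. Wells 2 and 3 of Day 30 were above wells 1 and 4 both in MME and in CDH1, the epithelial cadherin, which held 39.7 to 95.4 CPM there. EPCAM and CDH17 had this order too. AFP, APOA1, TTR and the sum (803 and 741 CPM) were instead higher in well 1 than in well 3. The fibroblast sum also had the MME order, at 3397, 5719, 5039 and 2556 CPM in wells 1 to 4. At Day 60 the fibroblast sum was 1663 to 2757 CPM. No endoderm or epithelial marker was at 0 in all libraries of a day, and the part of either group of cells in the MME value was not tested. FURIN, a convertase that cuts the NPPB precursor, was lower at Day 60 by a log2 value of -0.74 ± 0.13 (SE; adjusted p 0.0015). DPP4, a protease that trims B-type natriuretic peptide, fell by 1.70 ± 0.38 (SE; adjusted p 0.0024) over the course, at a low level of 2.72 ± 0.45 CPM (SD, n = 4) at Day 30.

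Of 5 secretory granule genes, 1 was higher and 3 lower over the course, beside 17.3% and 17.2% of all genes. PAM, an abundant membrane protein of atrial granules, was at 1127 ± 142 CPM (SD, n = 4) at Day 30 and 1514 ± 101 CPM (SD, n = 4) at Day 113. Its log2 change of 0.43 ± 0.14 (SE; adjusted p 0.025) was not called without Day 30 well 1, Day 30 well 3 or Day 113 well 4 (adjusted p 0.06, 0.086 and 0.067). CPE, a peptidase that trims prohormones, fell by 0.87 ± 0.10 (SE; adjusted p 5.1e-06), SCG2, a granin, by 1.40 ± 0.35 (SE; adjusted p 0.0057) and PTPRN, a granule membrane protein, by 0.99 ± 0.27 (SE; adjusted p 0.0088). SCG2 was likewise higher in wells 2 and 3 of Day 30 (25.5 and 20.5 CPM) than in wells 1 and 4 (11.9 and 7.18 CPM). CDH1, EPCAM, CDH17 and the fibroblast sum had this order. AFP, APOA1, TTR and the endoderm and epithelial sum were instead higher in well 1 than in well 3. The part of endoderm, epithelial or fibroblast cells in the SCG2 value was not tested. CHGA and SCG5 were not analysed here.

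Among 10 genes that make or break cyclic GMP, 4 were higher and 2 lower over the course, beside 17.3% and 17.2% of all genes. PDE1C, a calcium-activated phosphodiesterase of cyclic GMP and cyclic AMP, held 2.44, 0.934, 4.01 and 2.16 CPM at Day 30, 9.54, 11.5 and 7.29 CPM at Day 60, and 39.2, 42.9, 53.1 and 63.5 CPM at Day 113. Its days did not overlap. Its log2 rises were 1.98 ± 0.31 by Day 60 (SE; adjusted p 0.00077) and 2.40 ± 0.31 from there to Day 113 (SE; adjusted p 7.3e-05). Over the course PDE3A, a phosphodiesterase that cyclic GMP inhibits, rose by 1.70 ± 0.28 (SE; adjusted p 0.00022). PDE2A, which cyclic GMP activates, rose by 2.33 ± 0.53 (SE; adjusted p 0.0027), to 10.0, 4.39, 5.96 and 2.21 CPM in the Day 113 wells, highest in well 1 and lowest in well 4 as in the endothelial marker sum. That shared order was not tested. PDE9A, which is specific for cyclic GMP, fell by 1.41 ± 0.26 (SE; adjusted p 0.00051). After Day 60, GUCY1A1, a subunit of the nitric oxide-sensitive cyclase, rose by 0.51 ± 0.13 (SE; adjusted p 0.011), a call lost without Day 60 well 1 (adjusted p 0.063).

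Of 8 kinases and targets of cyclic GMP, 2 were higher over the course, beside 17.3% of all genes. PRKG1, the cyclic GMP-dependent kinase, held 8.93 ± 1.89 CPM at Day 30 and 22.5 ± 8.94 CPM at Day 113 (SD, n = 4 each) and rose by 1.34 ± 0.25 (SE; adjusted p 0.00061). VASP, an actin regulator that this kinase phosphorylates, rose by 0.67 ± 0.11 (SE; adjusted p 0.00019). PLN, the inhibitor of the calcium pump, was higher at Day 60 and then fell by 0.53 ± 0.13 (SE; adjusted p 0.0069).

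Of 17 transcription factors known at the NPPA or NPPB promoter, 1 was higher and 8 lower over the course. The shares over all genes were 17.3% and 17.2%. GATA4, a factor of the family whose motif stands in the NPPA promoter windows, held 491, 454, 449 and 467 CPM at Day 30 and 285, 329, 306 and 230 CPM at Day 113, without overlap. It fell by 0.69 ± 0.10 (SE; adjusted p 8.9e-05), and GATA6 by 0.39 ± 0.10 (SE; adjusted p 0.0088). NKX2-5 was at 372 ± 27.5 CPM (SD, n = 4) and 356 ± 80.8 CPM (SD, n = 4), with a log2 change of -0.06 ± 0.13 (SE; adjusted p 0.77). TBX2 and TBX3, T-box factors that repress NPPA outside working myocardium, fell by 0.98 ± 0.10 (SE; adjusted p 2.4e-06) and 1.62 ± 0.24 (SE; adjusted p 7.6e-05). In the second interval TBX20 fell by 0.77 ± 0.15 (SE; adjusted p 0.0017). TBX5, an activator of NPPA, had means of 90.7 CPM at Day 30, 122 CPM at Day 60 and 82.7 CPM at Day 113. It was called higher at Day 60 than at Day 30, by a log2 value of 0.43 ± 0.12 (SE; adjusted p 0.025), and fell by 0.56 ± 0.12 (SE; adjusted p 0.0025) from Day 60, while NPPA was called higher in both intervals. The first TBX5 call was lost without any 1 of 5 wells (Day 30 wells 1, 2 and 3, Day 60 wells 1 and 3), where the adjusted p ran from 0.055 to 0.12. SRF was the factor called higher, with 74.0 to 109 CPM at Day 30, 153 to 188 CPM at Day 113 and a value of 0.90 ± 0.13 over the course (SE; adjusted p 7.7e-05).

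Genes that respond to load alongside NPPA and NPPB did not move as one group, with 1 of 8 higher and 3 lower over the course. The shares over all genes were 17.3% and 17.2%. ANKRD1, a stretch-induced ankyrin repeat protein, was lower at Day 60 than at Day 30 (-0.99 ± 0.18, SE; adjusted p 0.0021) and then higher at Day 113 than at Day 60 (1.12 ± 0.18, SE; adjusted p 0.00039). FHL2 took the reverse course, at 1.11 ± 0.15 (SE; adjusted p 0.00029) and then -0.71 ± 0.15 (SE; adjusted p 0.0035). MYH7, the slow myosin heavy chain, fell by 0.73 ± 0.13 (SE; adjusted p 0.00052) over the course. Of the 6 measured neighbours of NPPA and NPPB on chromosome 1, only CLCN6 was called over the course, and it was lower (-0.51 ± 0.11, SE; adjusted p 0.0018). Over all genes 34.5% were called in either direction.

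**Figure D5:**
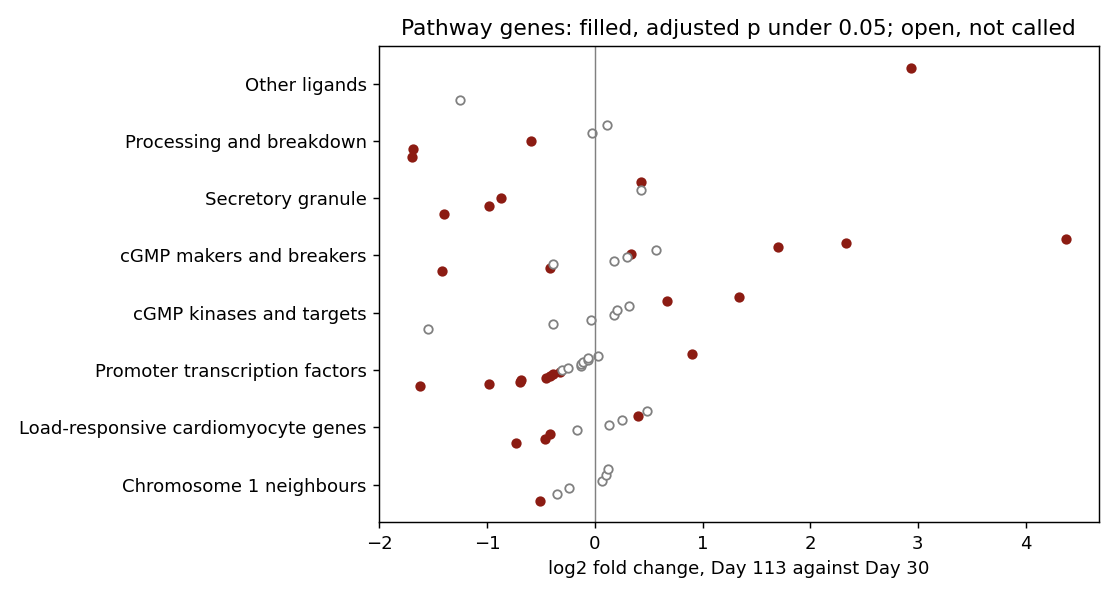
Log2 fold change from Day 30 to Day 113 for the 61 measured genes of the 8 lists, 1 point a gene, filled where the adjusted p in edgeR was under 0.05. The highest point is PDE1C (4.37) and the second is OSTN (2.94).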

How the data were processed

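The authors deposited whole-number read counts per gene symbol, with no normalization, for 19990 genes in 11 libraries. The submitters' processing notes name STAR 2.5.3a, featureCounts 2.0.3 and hg38, and the annotation and strand setting are not given in the sources used here. A deposited TPM table was put in no comparison, since the gene length implied by count over TPM differed 16.3- to 290-fold between libraries for the 6 genes.

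Counts were tested with edgeR 4.0.16 (glmQLFit, glmQLFTest; R 4.3.3), TMM factors of 0.966 to 1.04, day as the only factor and all 11 libraries in 1 fit. filterByExpr (minimum count 10) removed 0 genes. P-values were adjusted over all genes within each of 4 comparisons (3 pairs of days and the difference between intervals), and SE is the size of the log2 fold change over the square root of F. Log2 ratios (pseudocount 0.5) were compared with exact permutation tests in scipy 1.17.1, adjusted over 6 tests. The edgeR script was tested on counts simulated from these libraries, with genes changed by known folds. In the smallest library (24.1 M counts; M, 1000000), a count of 0 allows up to 0.125 CPM (3 counts), and that limit covers counting error only. Depth set the precision of the lowest genes. Lengths and positions came from GENCODE v29.

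Named were the 6 genes, any gene of the lists, and for each of the 6 the 3 genes nearest by correlation. The 6 genes, the lists and the tests were chosen with earlier results of these data known. Alternatives were other scaling, tools (DESeq2 1.42.0, limma 3.58.1), filters, fits and each well left out. NPPA-AS1, MYH11 and ELAVL4 were not analysed here.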

Additional observations from a re-analysis of the deposited data

Results flagged for a closer look

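The difference between the intervals, tested as a contrast of its own in edgeR, passed an adjusted p of 0.05 for 15 of the 40 named genes, which were chosen with earlier results known, beside 9.34% of all genes (1868 of 19990). For NPR1 the second interval exceeded the first by 2.71 ± 0.68 (SE; adjusted p 0.02) on the log2 scale. Values above 0 were also found for PECAM1 (4.69), CDH5 (4.41), MME (2.15), ANKRD1 (2.11), FURIN (0.88) and VASP (0.81), whose adjusted p ran with NPR1 from 0.001 to 0.027. Values below 0 were found for FHL2 (-1.82), PTPRN (-1.73), CSRP3 (-1.25), TBX20 (-1.08), PLN (-1.03), TBX5 (-0.99), HAND2 (-0.88) and CLCN6 (-0.67), with adjusted p of 0.00099 to 0.049. Of the 6 natriuretic genes, NPPA, NPPB, NPR2, NPR3 and CORIN did not pass.

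One Day 113 well lay far from the other 3 for 4 genes. TBX20 was low in well 2 (327 CPM), TBX2 was high in well 2 (42.3 CPM), NFATC4 was low in well 4 (26.0 CPM) and CDH5 was high in well 1 (155 CPM). Such a well was found in 4 of the 84 sets examined, where about 1 in 20 independent sets of normal values would hold one. The sets share wells and the genes were chosen with earlier results known, so this share is no test. None concerned the 6 natriuretic genes.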

How the results depend on the processing

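Across scalings, tools, filters and fits, 314 of 324 values of the 6 genes, their counts and ratios kept their direction and side of the threshold, as did 519 of 520 values of the other named genes. NPPA was called in all 3 pairs of days and NPR1 in both comparisons with Day 113 under every setting run. The NPR1 difference between intervals was lost under limma-voom (2.74), where 0 of the 6 genes passed (1 at an unadjusted p under 0.05, 1 in edgeR). The NPR3 value of the first interval turned to -0.127 under limma-voom, and its course value was called there (-1.39). CORIN in the second interval turned to -0.0311 under upper-quartile scaling, which also moved the split of calls between intervals from 993 higher and 875 lower to 770 and 1146.

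Wells of the same replicate number were correlated at low values that were all above 0, and the main fit did not use the numbers. Libraries of different days were correlated by log2 CPM after the day mean was taken off. The 10 same-number pairs had r of 0.0227 to 0.0761, and pairs of different number had r of -0.0779 to 0.0688. Of the 11 libraries, 9 were nearest to a library of their own number. Whether equal numbers stand for matched wells is not stated in the labels. With a replicate block, NPR3 gave -0.33 and -1.31 (first interval, course), CORIN -0.0334 and 0.243 (second interval, course), and 4 of the 6 genes were called over the course (NPPA, NPR1, NPR3 and CORIN). The block gave 2474, 4954, 7143 and 2366 calls over all genes in the 4 comparisons, beside 2060, 4790, 6889 and 1868.

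With each well left out, values ran as follows. NPPB in the second interval gave -0.0022 to 0.457. The NPR1 difference between intervals gave 2.31 to 3.34, with 0 to 1 of the 6 genes called (1 at an unadjusted p under 0.05 without Day 60 well 1 or 3). NPR2 gave -0.0748 to 0.127, -0.158 to 0.0437 and -0.116 to 0.0404 over the pairs of days and -0.285 to 0.119 between intervals. NPR3 gave -0.426 to 0.366, -1.72 to -0.528 and -1.69 to -0.658. CORIN gave -0.0854 to 0.173 in the second interval and -0.408 to 0.0921 between intervals. Over all genes, 1220 to 2618 were called in the first interval (1220, 1259 and 1323 without Day 60 well 3, Day 60 well 1 and Day 30 well 2) and 643 to 2221 between intervals (643 and 774 without Day 60 well 1 and 3). From Day 30 to Day 113 the NPPA to NPPB ratio gave 2.52 to 2.83 and the NPR3 to NPR1 ratio -3.93 to -2.996, where 3 wells against 4 cannot reach 0.05. NKX2-5 over the course gave -0.227 to 0.028, above 0 without Day 113 well 4. Where no cause is stated for a change above, the cause was not tested.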
